A study of Trichoderma atroviride with 42 samples.

Results

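The late stage of the response of the filamentous fungus Trichoderma atroviride to grazing larvae was described by comparing mycelium collected 8 h after Drosophila melanogaster larvae had fed on it with mycelium collected 4 h after. The comparison used the 3 libraries labelled as larvae at 8 h and the 3 labelled as larvae at 4 h, which are 6 of the 42 libraries in the series. All mycelium was wild type, was grown from conidia for 36 h at 27 °C without light on cellophane-covered potato dextrose agar, and gave total RNA for sequencing. Larvae stayed on the colony for 10 min and were taken off with forceps, after which the mycelium was incubated for 4 or 8 h. Each library came from a pool of 3 technical replicates, and the labels do not say which libraries came from separate cultures, so p-values measure the spread between these libraries. Mycelium cut with a scalpel and collected at 4 h and at 8 h (3 libraries each), and mycelium grazed by the collembolan O. folsomi at the same times (3 each), served to ask whether the late change differed by kind of damage. Untreated mycelium, on plates that were opened for 2 min, was collected at 8 h but not at 4 h in the libraries used here, so time since grazing and time on the plate cannot be told apart in the comparison of 8 h with 4 h.

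Larvae bite into and tear hyphae, the tubular cells of a fungal colony. A damaged hypha seals its broken compartments, signals through calcium, reactive oxygen species and oxidised lipids (oxylipins), and later regenerates; in T. atroviride, mechanical injury is also known as a trigger of aerial growth and asexual sporulation (conidiation). Hydrophobins, small secreted proteins that coat aerial hyphae and conidia, are known for their part in that later stage, while ribosomal proteins, actin and tubulin belong to the growth of hyphae. The deposited files name genes only by identifiers and, for some genes, by the text of a predicted protein domain, so a role below is that of the domain family, known mostly from other fungi.

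Among the larger called changes between 4 and 8 h after grazing, a hydrophobin, 2 mannosidases, 2 genes of the GPR1/FUN34/yaaH membrane protein family and a berberine-like gene rose, and an aminotransferase, a glucose/ribitol dehydrogenase and a cytochrome P450 fell. At an adjusted p under 0.05 in edgeR's quasi-likelihood test over all 42 libraries, 715 of 9193 genes tested (7.78%) differed, 389 of them higher at 8 h (4.23%) and 326 lower (3.55%). Changes of at least 2-fold were made by 198 of the called genes, 150 higher and 48 lower. Of the called genes, 353 higher and 286 lower had libraries that did not overlap between the times, as had 1949 of all genes tested (21.2%). A product text exists for 2865 of the tested genes (31.17%), and 288 of these were called (10.1%), 173 higher (6.04%) and 115 lower (4.01%). These texts come from the authors' deposited table of genes changed 30 min after injury, so the genes with a text are genes listed there, and the other 427 called genes cannot be named. Fitted to the 6 larval libraries alone, the same test called 104 genes, 88 higher and 16 lower, of which 103 were among the 715.

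The libraries at 8 h spread more widely than those at 4 h. Total counts were 2882255, 2510820 and 4052175 at 4 h and 2479450, 1607248 and 4332056 at 8 h, within the range of 1152096 to 5398093 over all 42 libraries. Pearson's r between log2 CPM (counts scaled to a common library size) of libraries of 1 group, across genes, was 0.980 to 0.986 at 4 h and 0.954 to 0.969 at 8 h. The third library at 8 h had an r of 0.973 to 0.978 with the 4 h libraries, above its 0.964 and 0.969 with the other libraries at 8 h. Over the called genes, the median shift from the 4 h mean was 1.01, 0.74 and 0.69 on the log2 scale for rises in replicates 1, 2 and 3 at 8 h, and -0.90, -0.59 and -0.42 for falls. The third library thus stood nearest to 4 h, most of all for the genes that fell. When it was left out 1066 genes were called, 497 higher and 569 lower, while without the first library at 8 h 298 were called, 182 higher and 116 lower. In the second library at 8 h 14.9% of counts fell on Tatro_002410-T1, for which no text exists. Its levels were 42860, 77910 and 29270 CPM at 4 h and 58620, 160600 and 2317 CPM at 8 h, and the difference was not called (log2 fold change 0.56 ± 0.96 SE, adjusted p = 0.79).

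**Figure D1:**
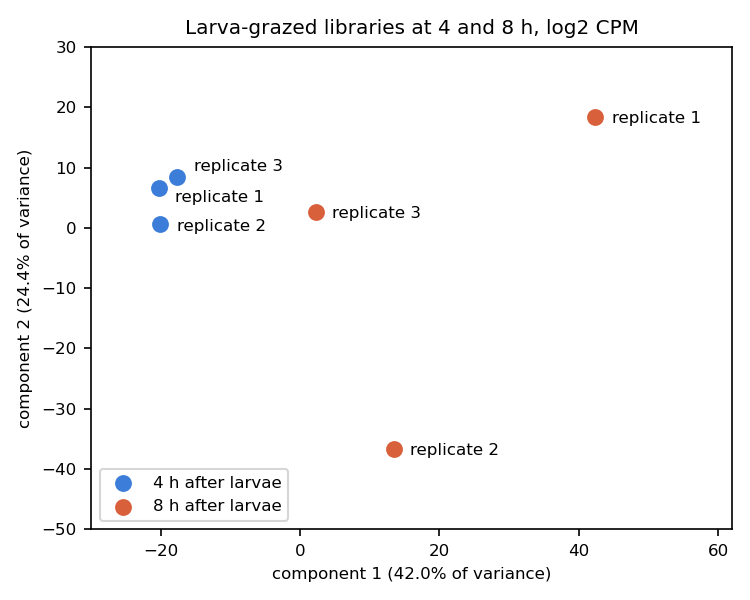
The 6 larval libraries on the first pair of principal components of log2 CPM (42.0% and 24.4% of variance on the x and y axes), points coloured by time. On the first component the 4 h libraries sit between -20.29 and -17.63, and the 8 h libraries at 42.40, 13.45 and 2.22 for replicates 1, 2 and 3.

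The hydrophobin of the cerato-ulmin family, Tatro_007246-T1, rose late after grazing. Its level was 75.5, 58.4 and 73.6 CPM at 4 h and 222, 268 and 204 CPM at 8 h. Every 8 h library lay above every 4 h library, and untreated mycelium at 8 h had 7.27 ± 2.93 CPM (SD, n = 3). The log2 fold change was 1.73 ± 0.21 (SE; 3.31-fold higher, adjusted p = 3.8e-07). At the earlier times after larvae the mean had been 1.30 CPM at 30 min and 9.29 CPM at 90 min, so the group means increase from each time to the next. Tatro_007246-T1 also rose between 4 and 8 h after injury (0.90 ± 0.20 SE on the log2 scale, adjusted p = 0.0027), and the difference of 0.82 ± 0.29 SE between the courses was not called (adjusted p = 0.13). After collembolan grazing it rose from a mean of 2.15 to 17.0 CPM (2.93 ± 0.40 SE, adjusted p = 9.1e-05), and the larval minus the collembolan value, -1.21 ± 0.48 SE, was not called (adjusted p = 0.42). It was the 1 called member of the 12 surface protein genes with a text. Of these, the 5 genes with a CFEM domain, found in proteins anchored at the outside of fungal cells, included none that was called. Tatro_003494-T1 had 74.8, 65.9 and 85.8 CPM at 4 h and 36.6, 46.2 and 73.9 CPM at 8 h, which overlap (log2 -0.49 ± 0.16 SE, adjusted p = 0.053). Without the third library at 8 h its value was -0.90 (adjusted p = 0.00018), and without the first -0.26 (adjusted p = 0.48). Tatro_000363-T1 had 18.0, 16.2 and 26.3 CPM at 4 h and 25.5, 18.1 and 150 CPM at 8 h (log2 1.80 ± 0.62 SE, adjusted p = 0.067). Without the third library at 8 h, which was far above the others, its log2 fold change was 0.12.

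Mannosidases trim mannose from the sugar chains of secreted and cell wall glycoproteins. Tatro_003610-T1, annotated as an alpha-1,2-mannosidase, had 6.93, 7.87 and 10.5 CPM at 4 h and 45.4, 17.4 and 27.0 CPM at 8 h. The times did not overlap, and the rise was 1.82 ± 0.25 SE on the log2 scale (adjusted p = 3.5e-06). The second gene with this text, Tatro_008558-T1, went from 31.5, 26.9 and 31.3 CPM to 84.2, 62.2 and 87.6 CPM (log2 1.40 ± 0.21 SE, adjusted p = 1.2e-05), again with no overlap. Tatro_004830-T1 of glycoside hydrolase family 47, the family of the class I alpha-mannosidases of the endoplasmic reticulum and Golgi, rose from 13.2, 17.8 and 11.7 CPM to 44.2, 20.7 and 42.1 CPM (log2 1.43 ± 0.30 SE, adjusted p = 0.0020). Untreated mycelium at 8 h had means of 19.1, 119 and 99.1 CPM of these 3 genes, against 29.9, 78.0 and 35.7 CPM at 8 h after grazing, so the grazed mean was above the untreated mean for Tatro_003610-T1 alone, with 1 of its 8 h libraries, at 17.4 CPM, below it.

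FAD-binding proteins use a flavin to oxidise or reduce their substrates, and those named moved both ways. Tatro_001564-T1, annotated as FAD/NAD(P)-binding, had 93.8, 95.3 and 101 CPM at 4 h and 355, 280 and 214 CPM at 8 h, a rise of 1.54 ± 0.18 SE on the log2 scale (2.91-fold, adjusted p = 2.1e-07). The lowest 8 h library was still above the highest 4 h library, and untreated mycelium at 8 h had 104 CPM. Tatro_011386-T1, with the berberine-like domain found in flavin-linked oxidases, had the largest rise of the genes with a text and at least 10 CPM in the higher group (log2 2.1 ± 0.40 SE, adjusted p = 0.00061). It rose from 1.04, 2.49 and 3.83 CPM to 8.39, 10.7 and 13.7 CPM with no overlap, from levels that rest on few reads. A further FAD/NAD(P)-binding gene, Tatro_007292-T1, rose by 1.28 ± 0.29 SE (adjusted p = 0.0047), but another, Tatro_005885-T1, fell by 1.15 ± 0.23 SE on the log2 scale (adjusted p = 0.0011). The value of Tatro_005885-T1 was -0.76 without the first and -1.73 without the third library at 8 h.

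The GPR1/FUN34/yaaH family holds membrane proteins linked to acetate and ammonium transport in yeasts. Both genes with this text among the 14 largest rises had low levels at 4 h. Tatro_002627-T1 had 5.54, 6.21 and 10.5 CPM at 4 h and 23.6, 17.4 and 28.2 CPM at 8 h. Tatro_000952-T1 had 3.46, 10.8 and 11.2 CPM at 4 h and 25.2, 19.4 and 30.3 CPM at 8 h. Neither pair of groups overlapped, and the rises were 1.63 ± 0.35 SE (adjusted p = 0.0023) and 1.58 ± 0.31 SE (adjusted p = 0.00099) on the log2 scale. Untreated means were 36.6 CPM at time 0 and 11.1 CPM at 8 h for Tatro_002627-T1, and 37.0 and 16.7 CPM for Tatro_000952-T1. Both genes also rose between 4 and 8 h after injury, by 1.44 ± 0.28 SE (adjusted p = 7e-04) and 1.94 ± 0.26 SE (adjusted p = 3.1e-06). Tatro_002486-T1, with the central domain of dynamins, large GTPases that pinch and fuse membranes, rose from 8.66, 8.70 and 10.5 CPM to 41.2, 26.8 and 28.6 CPM (log2 1.78 ± 0.29 SE, adjusted p = 9.6e-05). An acyl-CoA N-acyltransferase, Tatro_004013-T1, rose from 79.0, 82.8 and 73.6 CPM to 238, 178 and 165 CPM (log2 1.31 ± 0.19 SE, adjusted p = 8.8e-06). The remaining rises of the 14 were a glycoside hydrolase of family 28, the family of polygalacturonases (Tatro_010893-T1, log2 1.52, and 0.80 with an adjusted p = 0.23 without the third library at 8 h), a galactose-binding domain gene (Tatro_001640-T1, 1.44) and an ankyrin repeat gene (Tatro_006439-T1, 1.31).

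Among genes without a text that met the same conditions, the largest rises were steeper. Tatro_004450-T1 went from 8.31, 6.63 and 5.50 CPM to 101, 97.7 and 83.2 CPM, a rise of 3.80 ± 0.29 SE on the log2 scale (13.9-fold, adjusted p = 8.6e-12). Its libraries were tight at both times, and injury gave a like value of 3.38 ± 0.28 SE (adjusted p = 3e-11). Tatro_011619-T1 had 1 count in the 3 libraries at 4 h together and 202 counts at 8 h, at 21.3, 13.4 and 26.2 CPM. The ratio of the scaled counts was 214, with an exact 95% interval of 38 to 8510 that covers counting error only.

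**Figure D2:**
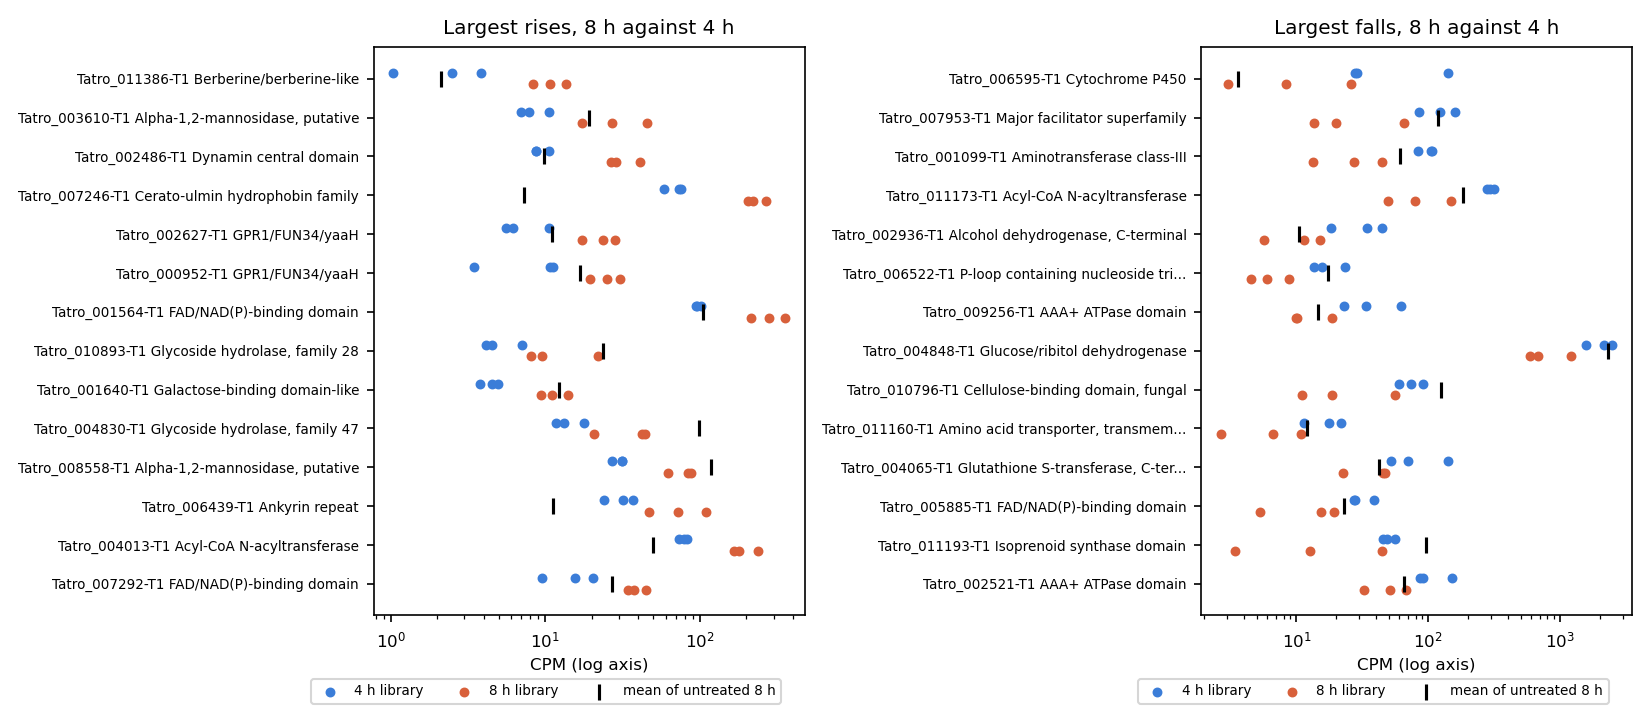
Level in CPM on a log axis of each 4 h and 8 h library (points) for the 14 largest rises (left) and the 14 largest falls (right) among called genes with a product text, with the mean of untreated mycelium at 8 h as a black bar. No gene has overlapping times by the rule of choice. The untreated mean lies above the 4 h mean for 10 of the 14 rises and below it for 11 of the 14 falls, counts that the choice of genes by these libraries favours.

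At 8 h the grazed mean was below the untreated mean for 12 of the 14 largest falls and above it for 10 of the 14 largest rises. The genes were chosen by their change in these same grazed libraries, which favours such counts, so no conclusion is drawn from them. Tatro_001099-T1, a class III aminotransferase (enzymes that move amino groups between amino acids and keto acids), had 107, 82.8 and 105 CPM at 4 h and 44.2, 13.4 and 27.4 CPM at 8 h. Every 8 h library was below every 4 h library, and the fall was -1.73 ± 0.20 SE on the log2 scale (3.33-fold lower, adjusted p = 1.1e-07). Tatro_011173-T1, an acyl-CoA N-acyltransferase like the gene that rose, fell from 295, 278 and 315 CPM to 49.2, 79.6 and 149 CPM (log2 -1.63 ± 0.22 SE, adjusted p = 2.2e-06). Untreated mycelium at 8 h had 61.1 ± 8.11 CPM and 182 ± 11.1 CPM (SD, n = 3) of these genes. For both, the grazed mean at 8 h lay below this level and the grazed mean at 4 h above it. No untreated library at 4 h exists to set beside the latter. Both calls, and the calls of 8 of the 14 rises, were kept under all 16 alternatives; the other 12 falls each lost the call under at least 1.

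Tatro_004848-T1 had the text glucose/ribitol dehydrogenase, which marks short-chain dehydrogenases, and the highest level of the falls. Its libraries gave 2486, 1557 and 2137 CPM at 4 h and 589, 681 and 1201 CPM at 8 h. The third 8 h library was highest of its group and still below every 4 h library (log2 -1.32 ± 0.20 SE, 2.49-fold lower, adjusted p = 1.3e-05). A major facilitator superfamily transporter, Tatro_007953-T1, fell from 123, 85.7 and 161 CPM to 13.7, 20.1 and 65.0 CPM (log2 -1.75 ± 0.27 SE, adjusted p = 2.8e-05), and by 2.93 on the log2 scale without the third 8 h library. In 10 of the 14 falls, but 4 of the 14 rises, that library was the nearest of its group to the 4 h level. The widest case was Tatro_011193-T1, with an isoprenoid synthase domain of terpene and sterol synthesis. It had 45.4, 48.5 and 55.9 CPM at 4 h and 3.43, 12.7 and 44.2 CPM at 8 h (log2 -1.08 ± 0.32 SE, adjusted p = 0.031). The value was -2.85 without the third 8 h library and -0.59, with an adjusted p = 0.27, without the first. A gene with a fungal cellulose-binding domain, Tatro_010796-T1, had 90.7, 60.1 and 73.9 CPM at 4 h and 11.1, 18.7 and 56.2 CPM at 8 h (log2 -1.22 ± 0.24 SE, adjusted p = 0.00079). Its value became -2.41 without the third 8 h library and -0.81 without the first.

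A cytochrome P450 (a haem enzyme that oxidises lipids and other small molecules) and a cytochrome b5 domain gene with consecutive identifiers had the largest falls with a text. The P450, Tatro_006595-T1, had 28.7, 142 and 28.0 CPM at 4 h and 3.05, 26.1 and 8.30 CPM at 8 h. The second replicate was the highest at both times, and the times did not overlap (log2 -2.63 ± 0.50 SE, adjusted p = 0.00061). Without the second 4 h library the log2 fold change was -1.45. The b5 gene, Tatro_006594-T1, had 16.6, 59.2 and 10.0 CPM and then 0.762, 12.7 and 2.28 CPM, which overlap (log2 -2.83 ± 0.59 SE, adjusted p = 0.0018). Without the second 4 h library its call was lost (-1.76, adjusted p = 0.052). Another P450, Tatro_007182-T1, rose from 355, 426 and 450 CPM to 994, 935 and 688 CPM (log2 1.09 ± 0.21 SE, adjusted p = 0.00069), and the 33 genes of the P450 and b5 list held 3 rises and 3 falls.

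Other falls among the 14 were of an alcohol dehydrogenase (Tatro_002936-T1, log2 -1.54), a P-loop nucleoside triphosphate hydrolase (Tatro_006522-T1, -1.53), AAA+ ATPase domain genes (Tatro_009256-T1, -1.46; Tatro_002521-T1, -1.07), an amino acid transporter (Tatro_011160-T1, -1.19) and a glutathione S-transferase, an enzyme of detoxification (Tatro_004065-T1, -1.18). Of these, Tatro_002936-T1 lost the call without the third 4 h library (adjusted p = 0.066) or the first 8 h library (adjusted p = 0.063), and Tatro_006522-T1 without the third 4 h library (adjusted p = 0.074) or the third 8 h library (adjusted p = 0.060). Tatro_011160-T1 was called only narrowly (adjusted p = 0.042) and lost the call without any 1 of replicates 2 and 3 at 4 h and replicates 1 and 2 at 8 h (adjusted p = 0.15, 0.11, 0.31 and 0.080). Its value was -2.0 without the third 8 h library. Tatro_004065-T1 lost the call without the second 4 h library (log2 -0.67, adjusted p = 0.15) or the first 8 h library (adjusted p = 0.11). The largest falls without a text were of Tatro_002710-T1 from 32.9, 51.4 and 73.4 CPM to 5.34, 16.7 and 6.43 CPM (log2 -2.72 ± 0.63 SE, adjusted p = 0.0050), and Tatro_005328-T1 from 52.3, 55.1 and 48.1 CPM to 3.81, 19.4 and 11.8 CPM (log2 -2.25 ± 0.61 SE, adjusted p = 0.016). Neither overlapped between times, and the call of Tatro_005328-T1 was lost without the first 8 h library (adjusted p = 0.14).

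Most ribosomal protein genes were not called, and those that were fell. Of 66 ribosomal protein genes with a text, 8 fell and none rose, against 4.01% of genes with a text that fell, and the median log2 fold change was -0.35 against -0.02 over all genes tested. Tatro_008724-T1 (L37ae) fell from 1521, 1947 and 1749 CPM to 982, 1320 and 1231 CPM (log2 -0.56 ± 0.16 SE, adjusted p = 0.025), a call lost without the second 4 h, the third 4 h or the first 8 h library (adjusted p = 0.12, 0.064 and 0.22). The 21 ribosome biogenesis genes held no call (median -0.28), and of 14 tRNA ligase genes 2 fell and none rose (median -0.04). Between 4 and 8 h after injury 44 of the 66 ribosomal protein genes and 13 of the 21 biogenesis genes fell, with medians of -0.51 and -0.58. Over all genes tested, 6.71% fell after injury. The test of the difference between the larval and the injury course called none of these ribosomal protein or biogenesis genes, so no difference is drawn from the counts. The count of ribosomal falls after larvae ranged from 0 to 12 over the alternatives, at 0 without the first 8 h library and 12 without the third.

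Genes with actin or tubulin in their text were taken as markers of growing hyphae. They include actin-related proteins and proteins that bind actin or tubulin, beside actin and tubulin themselves. Of the 24 with such a text 1 was called, against 10.1% of all genes with a text, and their median log2 fold change was -0.14 (range -0.94 to 0.34). Actin (Tatro_010755-T1) had 2657, 2722 and 2609 CPM at 4 h and 2538, 2305 and 2620 CPM at 8 h, a difference of -0.10 ± 0.09 SE on the log2 scale. Untreated mycelium had 2598 ± 108 CPM of this gene at time 0 and 4115 ± 180 CPM at 8 h (SD, n = 3 each). The called marker was Tatro_008588-T1, with a Ysc84 actin-binding domain (log2 -0.94 ± 0.29 SE, adjusted p = 0.035), and the call was lost under 7 of 16 alternatives, among them leaving out replicate 2 or 3 at 4 h or replicate 1 or 2 at 8 h (adjusted p = 0.17, 0.055, 0.29 and 0.098). Without the third 8 h library its value was -1.57. Profilin, which feeds monomers to growing actin filaments (Tatro_003703-T1), fell from 656, 519 and 605 CPM to 444, 369 and 439 CPM (log2 -0.50 ± 0.13 SE, adjusted p = 0.012), as did tropomyosin, which binds along them (Tatro_010550-T1, -0.46 ± 0.14 SE, adjusted p = 0.033). The profilin call was lost without the first 4 h or the second 8 h library (adjusted p = 0.091 and 0.087). The tropomyosin call was lost without any 1 of the larval libraries except the third at 8 h, with an adjusted p between 0.057 and 0.15. None of the 34 genes of the cell cycle and cytoskeleton list rose, and none of the 29 DNA replication and repair genes was called.

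Among hydrolases and in the list of NLR-like and incompatibility proteins, more called genes rose than fell, as over all genes with a text (173 against 115). Of 61 peptidase genes, 9 rose and 1 fell (6.04% and 4.01% over genes with a text), and of 47 glycoside hydrolase genes 7 rose and 4 fell. The largest peptidase rise was a cysteine peptidase, Tatro_011504-T1, from 108, 130 and 123 CPM to 335, 265 and 189 CPM (log2 1.12 ± 0.21 SE, adjusted p = 0.00061), with no overlap. The fallen peptidase was an aspartic peptidase, Tatro_008494-T1, at 66.8, 234 and 111 CPM and then 25.2, 122 and 55.2 CPM, which overlap (log2 -1.11 ± 0.34 SE, adjusted p = 0.037). Without the second 4 h library the value was -0.50 (adjusted p = 0.43). The call was also lost without the first or the third 8 h library (adjusted p = 0.32 and 0.10), while without the second 8 h library the value was -1.67. The list of NLR-like and incompatibility proteins held NACHT, ankyrin and heterokaryon incompatibility domains, some with a part in telling self from non-self in fungi. It also took in WD and tetratricopeptide repeats, so the list as a whole is not given that role. Of its 96 genes 9 rose and 1 fell. Without the first 8 h library 2 peptidase, 2 glycoside hydrolase and 4 NLR-like genes rose, and in the fit of the 6 libraries 1, 1 and 0 did.

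Transport and energy lists held rises and falls, to be read against 6.04% and 4.01% over genes with a text. Of 78 major facilitator genes 9 rose and 8 fell, and of 74 other transporter genes 2 rose and 6 fell. A rise among the latter was Tatro_001115-T1, a mitochondrial carrier, from 51.9, 59.6 and 79.4 CPM to 132, 155 and 104 CPM (log2 1.00 ± 0.22 SE, adjusted p = 0.0025). Of the 8 respiration genes, cytochrome c (Tatro_010083-T1) fell from 1585, 1459 and 1546 CPM to 658, 1242 and 993 CPM (log2 -0.67 ± 0.17 SE, adjusted p = 0.0089), and subunit c of the ATP synthase (Tatro_000931-T1) fell by 0.62 ± 0.17 SE on the log2 scale (adjusted p = 0.020). Both calls were lost without the first 8 h library (adjusted p = 0.16 and 0.26), and that of Tatro_000931-T1 also without the first or second 4 h library (adjusted p = 0.065 and 0.052). The list for fatty acid breakdown and glyoxylate held 3 rises and 2 falls among 47, and it takes in the N-acyltransferases above through words they share with its enzymes. The 62 amino acid metabolism genes held 4 rises and 5 falls, and the 139 fungal transcription factor genes 5 and 3.

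**Figure D3:**
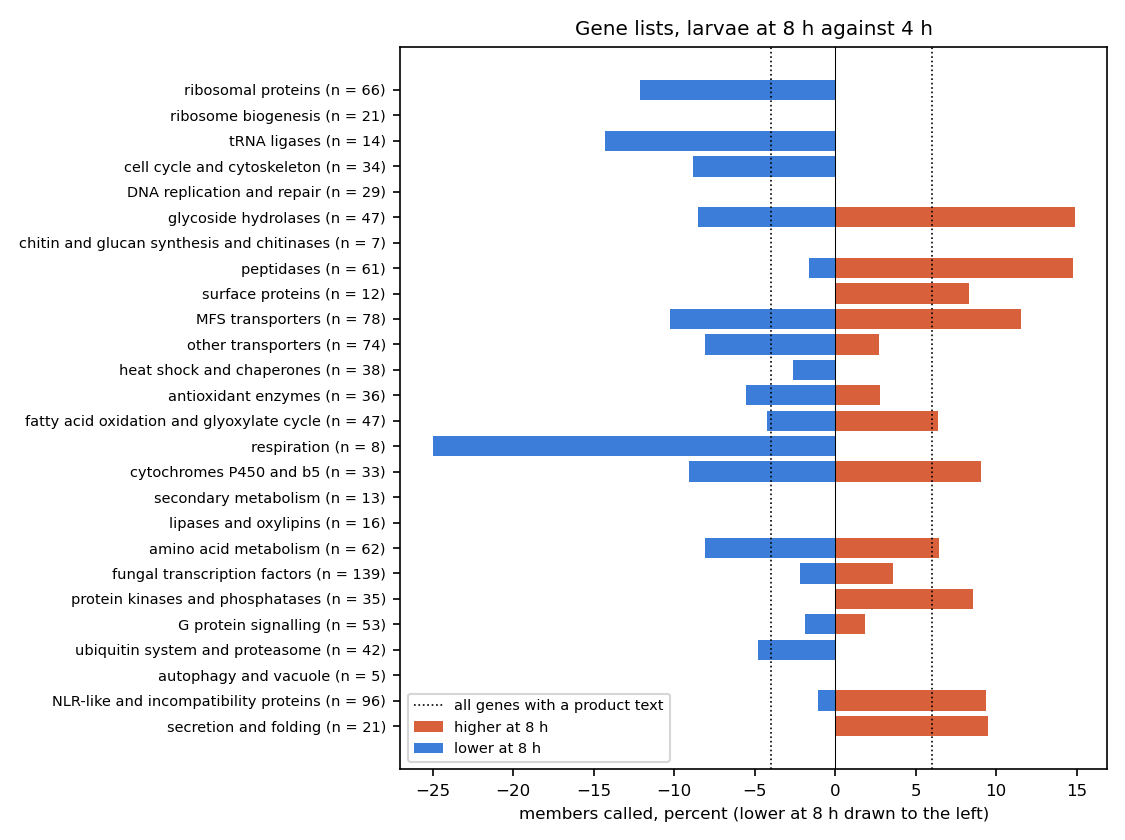
Percent of the members of each gene list with at least 5 tested genes that were called higher (right) or lower (left) at 8 h than at 4 h after larvae, with the percentages over all genes with a product text as dotted lines (6.04 higher, 4.01 lower). Peptidases (9 of 61 higher, 1 lower) and ribosomal proteins (8 of 66 lower, none higher) lie furthest to 1 side among the lists of over 60 genes.

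Genes known for a part in damage responses were followed whatever their value; 10.1% of all genes with a text were called. The lipoxygenase, which starts oxylipin synthesis (Tatro_003855-T1), had 1048, 1826 and 1010 CPM at 4 h and 934, 2146 and 1317 CPM at 8 h. These overlap (log2 0.18 ± 0.26 SE, adjusted p = 0.76), and both means were above the 234 ± 37.5 CPM (SD, n = 3) of untreated mycelium at 8 h. Of the 3 catalases, which break down hydrogen peroxide, none was called: Tatro_007179-T1 had a log2 fold change of -0.03 ± 0.31 SE, Tatro_008157-T1 of 0.21 ± 0.12 SE, and Tatro_006112-T1 was below 3 CPM in each of the 6 libraries. The catalase-peroxidase, an enzyme with both activities (Tatro_002100-T1), rose from 241, 285 and 232 CPM to 455, 360 and 376 CPM (log2 0.66 ± 0.14 SE, adjusted p = 0.0018), with no overlap. Untreated mycelium at 8 h had 479.5 ± 43.3 CPM (SD, n = 3), a mean above every grazed library at 8 h. The call was lost in both fits of the 6 larval libraries, with an adjusted p of at most 0.093. The MAP kinases Tatro_000708-T1 and Tatro_003677-T1, relays of stress signals, had log2 fold changes of 0.12 ± 0.09 and 0.20 ± 0.09 SE, and the MAP kinase kinase kinase Tatro_005384-T1 of 0.07 ± 0.09 SE, none of them called. A protein kinase-like gene, Tatro_004205-T1, rose from 234, 228 and 229 CPM to 459, 375 and 372 CPM (log2 0.80 ± 0.19 SE, adjusted p = 0.0061). No product text named an NADPH oxidase, a Dicer or an Argonaute. Texts give predicted domains for a part of the genes, so such genes may be present under another text or none.

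The late change after larvae and that after injury were compared directly, since they share no libraries. From 4 to 8 h after injury 1140 of 9193 genes (12.4%) were called, 523 higher (5.69%) and 617 lower (6.71%). Genes higher in both courses numbered 129, which is 33.2% of the larval and 24.7% of the injury rises, and genes lower in both numbered 52, 16.0% of the larval and 8.43% of the injury falls. The opposite direction was called for 17 genes, 4 that rose after larvae and 13 that fell. Over the 389 genes that rose after larvae, the median log2 fold change after injury was 0.34, with 327 above 0. Over the 326 that fell it was -0.10, with 208 below 0. Of all 9193 genes tested, 4530 lay above 0 after injury and 4663 below.

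The test of the difference between the courses called 246 genes (2.68%), 82 with the larval value higher (0.892%) and 164 with it lower (1.78%), and 118 of the 246 were themselves called after larvae. In 153 genes the larval log2 fold change was below 0 and the injury value above it, in 72 the reverse, and in 21 the signs were the same. The genes were chosen by this same difference, which favours opposite signs. The signs of values that were not called are counted too, so no conclusion is drawn from this split. The number of genes called ranged from 56, without the first injury library at 4 h, to 477, without replicate 3 of the larval libraries at 8 h.

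Among the genes that fell after larvae, the N-acyltransferase Tatro_011173-T1 had 152, 206 and 187 CPM at 4 h after injury and 175, 203 and 170 CPM at 8 h. The injury groups overlap, and the difference between the courses was -1.64 ± 0.30 SE on the log2 scale (adjusted p = 0.0016). The dehydrogenase Tatro_004848-T1 had 732, 1162 and 986 CPM and then 1193, 1287 and 1179 CPM after injury (log2 0.35 ± 0.19 SE, adjusted p = 0.26), a difference of -1.66 ± 0.27 SE (adjusted p = 0.00057). Its larval mean of 2060 CPM at 4 h lay near the untreated 2293 CPM at 8 h, but untreated mycelium at time 0 had 3345 ± 385 CPM (SD, n = 3). The injury libraries at 4 and 8 h stood below both untreated means. The AAA+ ATPase gene Tatro_009256-T1 (-1.86 ± 0.40 SE, adjusted p = 0.0075) and the alcohol dehydrogenase Tatro_002936-T1 (-2.18 ± 0.50 SE, adjusted p = 0.011) also fell after larvae and had uncalled log2 fold changes of 0.40 and 0.64 after injury. The difference for Tatro_002936-T1 lost its call without replicate 3 of the larval libraries at 4 h or replicate 1 of the injury libraries at 4 h (adjusted p = 0.074 and 0.067).

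For the next 3 genes the injury course was called and the larval one was not. The lipoxygenase Tatro_003855-T1 fell after injury from 1487, 1460 and 980 CPM to 463, 533 and 732 CPM (log2 -1.18 ± 0.27 SE, adjusted p = 0.0029), and the difference between the courses was 1.36 ± 0.37 SE (adjusted p = 0.038). That call was lost under 8 of 20 alternatives, 7 of which leave out 1 library, with an adjusted p of at most 0.16. A transcription factor domain gene, Tatro_008005-T1, fell after injury from 96.6, 84.9 and 55.6 CPM to 21.7, 19.3 and 27.0 CPM (-1.80 ± 0.25 SE) and had -0.05 ± 0.27 SE after larvae, a difference of 1.75 ± 0.37 SE (adjusted p = 0.0071). An ankyrin repeat gene, Tatro_000365-T1, rose after injury from 21.6, 41.6 and 66.1 CPM to 205, 166 and 163 CPM (2.04 ± 0.27 SE). It stood at 192, 163 and 156 CPM at 4 h after larvae and at 276, 138 and 186 CPM at 8 h, so the larval libraries were at that level at both times (difference -1.79 ± 0.37 SE, adjusted p = 0.0065). Among genes that rose after larvae and were not called after injury, the P450 Tatro_007182-T1 had a larval value 1.12 ± 0.29 SE above the injury value (adjusted p = 0.028), and the kinase-like gene Tatro_004205-T1 a value 0.97 ± 0.27 SE above it (adjusted p = 0.037). These 2 calls were lost under 6 and 10 of the alternatives, with adjusted p up to 0.11 and 0.18. After collembolan grazing both rose too, by 0.99 ± 0.21 SE (adjusted p = 0.013) and 0.86 ± 0.19 SE (adjusted p = 0.018). The larval values differed from these by 0.09 ± 0.29 SE and -0.05 ± 0.27 SE (adjusted p = 0.97 and 0.98).

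**Figure D4:**
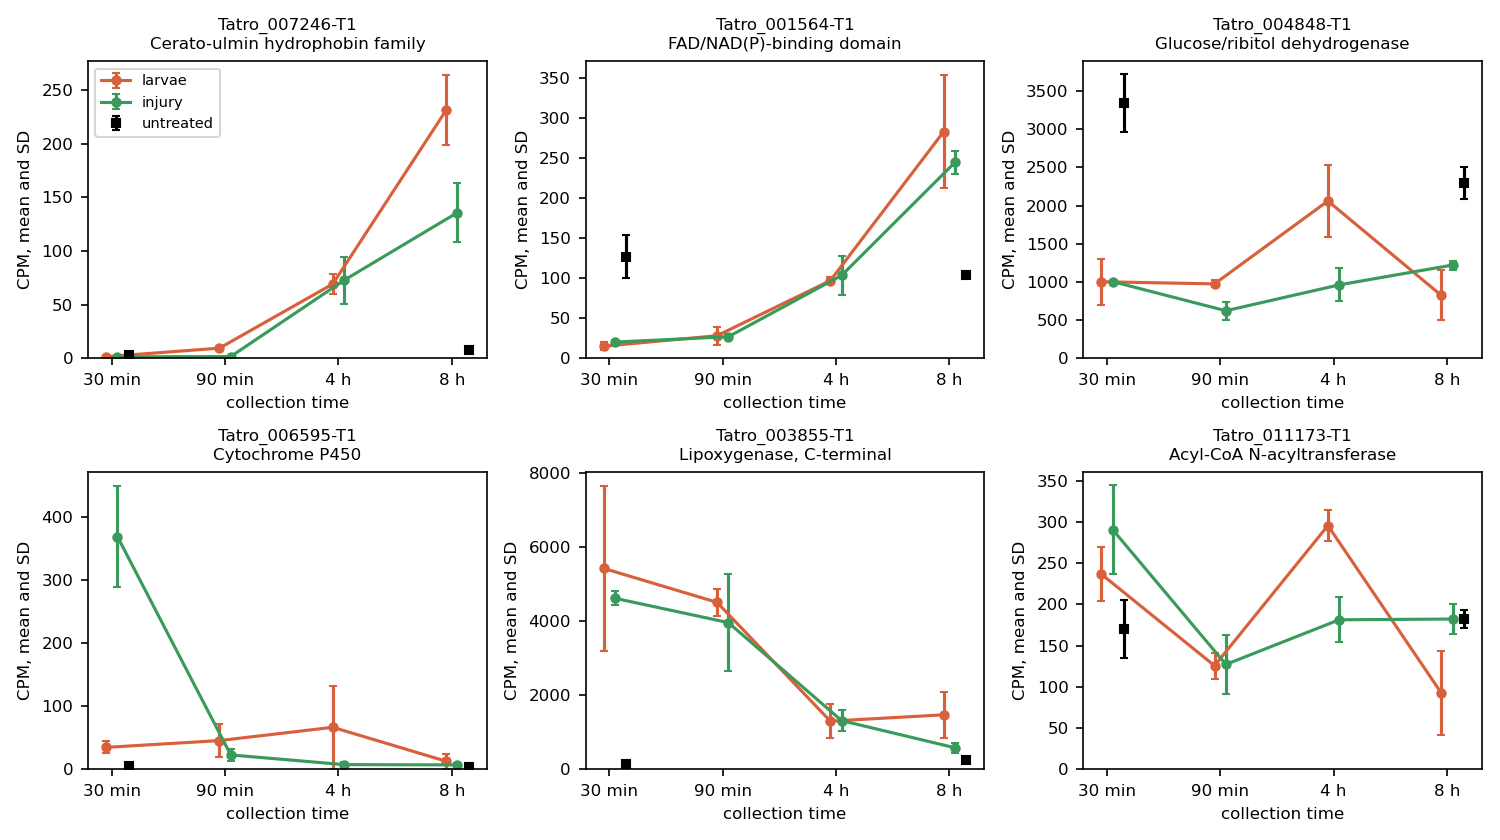
Mean and SD (n = 3) in CPM of 6 genes, by collection time (x axis, 30 min to 8 h), after larvae (orange) or injury (green), with untreated mycelium as black squares, drawn at 30 min for the early control, whose label gives time 0, and at 8 h for the late one; SD bars that reach below 0 are cut at the axis. The dehydrogenase Tatro_004848-T1 and the N-acyltransferase Tatro_011173-T1 go from larval means of 2060 and 296 CPM at 4 h to 823 and 92.6 CPM at 8 h, while the hydrophobin Tatro_007246-T1 goes from 69.2 to 231 CPM.

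**Figure D5:**
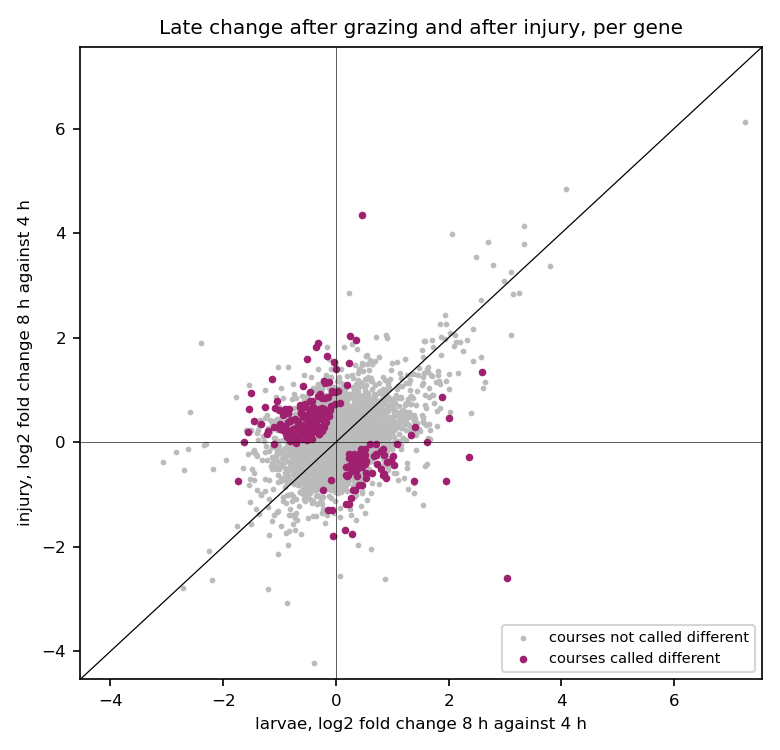
Log2 fold change from 4 to 8 h after larvae (x axis) and after injury (y axis) of each of the 9193 genes tested, with the 246 genes whose courses were called different in purple and the line of equal change drawn. Across genes, which are not independent replicates, Pearson's r was 0.41.

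After collembolan grazing 84 genes were called between 4 and 8 h (0.914%), 75 higher (0.816%) and 9 lower (0.0979%). Genes that rose in both courses numbered 34, which is 8.74% of the larval and 45.3% of the collembolan rises. The difference between the grazers' courses was called for 9 genes (0.0979%; 819 had an unadjusted p under 0.05), with the larval value higher in 4 (0.0435%) and lower in 5 (0.0544%). The mannosidase Tatro_003610-T1 was among them: its means after the collembolan were 24.4 CPM at 4 h and 21.5 CPM at 8 h, against 8.44 and 29.9 CPM after larvae, and the difference was 2.00 ± 0.33 SE (adjusted p = 0.0016). Set against the 19.1 CPM of untreated mycelium at 8 h, its larval mean was lower at 4 h and higher at 8 h, with no untreated library at 4 h. The aminotransferase Tatro_001099-T1 had 58.7 and 59.4 CPM after the collembolan at these times, and the difference was -1.76 ± 0.27 SE (adjusted p = 0.0013). Without the third larval library at 8 h 115 genes were called in this test, and without the third at 4 h 4 were.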

How the data were processed

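Per the submitters' processing notes, FastQC 0.11.6, HISAT2 2.1.0 and HTSeq 0.14.1 were used on libraries made, per the labels, with a stranded total RNA kit; the build, annotation and strand option were not found in those sources, so reads of overlapping or near-identical genes may be split. The authors deposited raw read counts for 12018 transcript models, and 1 model was kept for each of 11786 genes (the 204 genes with several models had identical counts in them). The authors' deposited log2 fold changes at 4 and 8 h after larvae served to check the column names: those at 8 h (1073 genes) differed from the values of the 8 h larval columns by 0.049 on average, against 1.160 for the collembolan columns. Counts were tested with edgeR 4.0.16 (R 4.3.3; TMM factors, filterByExpr by group, quasi-likelihood F test over 14 groups, Benjamini-Hochberg adjustment over 9193 genes, called under 0.05); SEs were taken as |log2 fold change|/√F, and levels are given in CPM. Difference tests between courses used the same fit. The fit was tested on simulated counts. Product texts gave the gene lists, by word patterns. The genes named are the 14 largest rises and falls among called genes with a text, a group mean of 10 CPM or more and libraries that do not overlap, 2 of each without a text, up to 3 per list, the 4 largest of each sign per difference test, and the hydrophobin, CFEM, catalase, lipoxygenase and MAP kinase genes; genes outside it were chosen after their values were seen. Members and lists were chosen with earlier results of these data known. Alternatives were other scaling (DESeq2 1.42.0 size factors, library totals, without the most abundant gene), other filters, a robust spread, DESeq2's Wald test, the 6 libraries alone, a replicate block and leaving out each library. Depth limits the precision of genes under about 10 CPM.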

Additional observations from a re-analysis of the deposited data

Results flagged for a closer look

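Each value here is the larval log2 fold change from 4 to 8 h minus that of another course, and each was picked out because edgeR's test of that difference called it. Against the injury course the larval value was lower for the ankyrin repeat gene Tatro_000365-T1 (-1.79), the aminotransferase Tatro_001099-T1 (-1.0), a tRNA synthetase of class Ic, Tatro_002789-T1 (-0.83), the alcohol dehydrogenase Tatro_002936-T1 (-2.18), profilin, Tatro_003703-T1 (-0.64), and the glucose/ribitol dehydrogenase Tatro_004848-T1 (-1.66). It was also lower for the AAA+ ATPase gene Tatro_009256-T1 (-1.86), a proteasome subunit, Tatro_009409-T1 (-0.54), the cellulose-binding domain gene Tatro_010796-T1 (-1.38), the N-acyltransferase Tatro_011173-T1 (-1.64) and the isoprenoid synthase gene Tatro_011193-T1 (-1.74). It was higher for a lysozyme-like gene, Tatro_002167-T1 (1.85), the lipoxygenase Tatro_003855-T1 (1.36), the kinase-like gene Tatro_004205-T1 (0.97), a DUF3176 gene, Tatro_004596-T1 (1.57), and the P450 Tatro_007182-T1 (1.12). The same held for the transcription factor domain gene Tatro_008005-T1 (1.75), the mannosidase Tatro_008558-T1 (1.10) and a subunit of the oligosaccharyltransferase that attaches sugar chains to secreted proteins, Tatro_011841-T1 (0.54). The adjusted p was 0.00057 for Tatro_004848-T1 and at most 0.048, for Tatro_003703-T1. Under all 20 alternatives the calls of Tatro_000365-T1, Tatro_004848-T1, Tatro_008005-T1, Tatro_009256-T1 and Tatro_011173-T1 were kept, and each of the others was lost under 2 or more. The call of Tatro_003703-T1 was lost under 11, that of Tatro_004205-T1 under 10, that of Tatro_001099-T1 under 9, and those of Tatro_002167-T1 and Tatro_003855-T1 under 8 each. Without the third larval library at 8 h the values were -2.58 for Tatro_010796-T1 and -3.50 for Tatro_011193-T1.

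Against the collembolan course the larval value was lower for Tatro_001099-T1 (-1.76), a peptidase of family M28, Tatro_002951-T1 (-1.70), the P-loop hydrolase Tatro_006522-T1 (-2.62) and Tatro_011173-T1 (-1.51). It was higher for the mannosidase Tatro_003610-T1 (2.00) and an aspartic peptidase, Tatro_004676-T1 (1.28). The adjusted p was 0.0013 for Tatro_001099-T1 and at most 0.032, for Tatro_002951-T1. The calls of Tatro_001099-T1 and Tatro_003610-T1 were kept under all 20 alternatives, those of Tatro_006522-T1, Tatro_011173-T1, Tatro_002951-T1 and Tatro_004676-T1 were lost under 1, 3, 6 and 7. Without the first larval library at 8 h the value of Tatro_004676-T1 was 0.85 (adjusted p = 0.17).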

How the results depend on the processing

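No called value of a named gene changed sign under the alternatives run; over all of them 1956 values of named genes stayed on their side of the threshold, 324 lost the call and 9 gained one. Of the 715 called genes, 72 (65 higher, 7 lower) were called under all 16 alternatives, and 190 (115 higher) when each larval library was left out in turn. The share of rises among calls was 54.4%, and 70.1% (439 against 187) when libraries were scaled by their totals alone. The fit of the 6 libraries gave 104 calls and 76 of at least 2-fold. Whether the replicate numbers pair the libraries was not settled. Deviations from the group means had an r of -0.005, 0.109 and 0.067 for same-numbered libraries, and of -0.119 to 0.057 for the others. A replicate block gave 704 calls over 42 libraries, and 95, 81 of them at least 2-fold, over the 6. Leaving out each library gave 298 to 1066 calls, with 139 to 393 of at least 2-fold; the cause was not tested. The difference from the injury course had 56 to 477 calls and 153 with library totals. The difference from the collembolan course had 4 to 115 calls and 24 with DESeq2. The injury course itself had 540 to 1317 calls when libraries were left out, and the collembolan course 12 (without its replicate 2 at 4 h or replicate 3 at 8 h) to 115.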

Other observations

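Genes with consecutive identifiers were called together in places. Consecutive identifiers are taken as neighbours only in the order of the deposited names, and the runs were chosen after their values were seen. Of the runs of genes called in 1 direction, 11 held 3 genes or more, 6 of rises and 5 of falls, with 39 genes in all. The longest had 7 genes that fell, with log2 fold changes of -0.98 to -0.44. Its gene with a text, Tatro_002174-T1, is a starter unit:ACP transacylase, a domain that loads the first unit in polyketide synthesis. It had 758, 751 and 846 CPM at 4 h and 457, 488 and 550 CPM at 8 h, with no overlap (-0.65 ± 0.12 SE, adjusted p = 0.00061). The untreated mean at 8 h was 557 CPM.

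There were 2 runs of 4 genes that rose. Tatro_001986-T1 and Tatro_001987-T1, both of the family DUF3328, began a run of 1.00 to 1.67 on the log2 scale; Tatro_001986-T1 had 11.8, 18.2 and 14.6 CPM at 4 h and 44.6, 20.7 and 22.6 CPM at 8 h, with the first 8 h library well above the others. The other had no text and rose by 1.82 to 2.26. A run of 3 held an amidase, an aldehyde dehydrogenase and a major facilitator gene (Tatro_011935-T1 to Tatro_011937-T1), with rises of 0.61, 1.25 and 1.33. The dehydrogenase Tatro_004848-T1 began a run of 3 falls of -1.51 to -0.82.

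A gene without a text had the largest negative difference from the injury course, -3.87 ± 0.67 SE on the log2 scale (adjusted p = 0.00098). It had 0.202, 0.178 and 0.741 CPM at 4 h after injury and 10.3, 8.54 and 6.06 CPM at 8 h, but 4.85, 3.31 and 5.74 CPM already at 4 h after larvae and 8.39, 6.69 and 5.40 CPM at 8 h. Its mean in untreated mycelium at 8 h was 0.705 CPM.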
